A study of Homo sapiens with 2 samples.

Results

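The matrix genes described here were the collagen chains, the laminin chains, 13 further matrix glycoproteins and 10 genes for collagen processing and crosslinking. The rule that picks members uses only gene symbols, though it was set with earlier results of these data known, and 79 of the 26255 listed genes matched: 44 collagens, 12 laminins, the 13 glycoproteins and the 10 processing genes. They were followed in OVSAHO, an established human ovarian cancer cell line. In the perturbed culture SMARCA2 was raised (labelled as stable) and SMARCA4 was knocked down. The control culture was labelled WT, and in the series text it carries a control construct and siNC. Both cultures, the control included, had been in 25 µM carboplatin for 2 days, so an untreated state was not analysed here. Each group was 1 library, and whether a line was a single clone is not given in the sources used here. No error between cultures exists for any value below, and no p-value was computed.

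The extracellular matrix that cells secrete has 2 broad forms. The basement membrane, a thin sheet under epithelia, is built from a laminin network and a collagen IV network joined by nidogens and the heparan sulphate proteoglycans perlecan and agrin. The interstitial matrix is built from fibrillar collagens, fibronectin, fibrillins and associated glycoproteins, and in tumours it is made largely by fibroblasts. A laminin is a trimer of 1 alpha, 1 beta and 1 gamma chain, and a collagen is a trimer whose chains are hydroxylated on proline and lysine in the endoplasmic reticulum, trimmed after secretion and crosslinked by lysyl oxidases. SMARCA2 and SMARCA4 are the alternative ATPases of the SWI/SNF chromatin remodelling complex.

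Values are FPKM (mapped fragments divided by transcript length in kilobases and by the library's total in units of 1000000), so levels can be compared between genes of different length. The steps between low values put about 8850000 fragments behind the perturbed table and 9050000 behind the control. SMARCA2 was at 2.60 FPKM in the perturbed culture and 0.205 FPKM in the control culture, and SMARCA4 was at 4.49 and 27.9 FPKM, both in the labelled direction. Of 9 markers of serous ovarian cancer epithelium, 8 were at 1 FPKM or more, among them PAX8 (42.1 and 21.9 FPKM, perturbed before control) and EPCAM (40.9 and 27.1 FPKM). Of these markers the keratin KRT7 was lower (119 and 540 FPKM), WT1 and CLDN3 were higher, KRT8 (462 and 488 FPKM) and KRT18 (362 and 420 FPKM) were within 2-fold, and the list summed to 1068 and 1518 FPKM. MUC16 was the exception, at 0 and 0.0608 FPKM. Of 10 fibroblast and stroma markers, 7 were listed at 0 in the perturbed library and 8 in the control, including the defining genes PDGFRB, DCN, LUM, FAP and POSTN in both. Their summed level was 0.905 FPKM in the perturbed culture and 3.32 FPKM in the control culture, most of it from THY1. Endothelial markers (3 genes) summed to 0.411 and 0.349 FPKM and leukocyte markers (3 genes) to 0.170 and 0.167 FPKM. The mesothelial markers MSLN (45.2 and 43.3 FPKM) and UPK3B (85.9 and 27.1 FPKM) were present, while CALB2 was at 0 and 0.0940 FPKM. With 1 culture of each kind, fewer cells of a type and less RNA per cell cannot be told apart.

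Matrix genes were more often higher in the perturbed library than the tables as a whole. A call needed a level of at least 1 FPKM in one of the libraries and a difference of 2-fold or more once 1 FPKM had been added to both values, that is 1 on the log2 scale. Of the 36 matrix genes at that level, 13 were higher (36.1%), against 7.85% of all 11785 genes at that level. Only 3 were lower (8.33%), close to the 7.61% of all genes. The other 20 lay within 2-fold. Of the called members, HSPG2, LAMA1 and PCOLCE2 reached 1 FPKM only in the perturbed library, and COL25A1 only in the control. Each passed the filter only through the library in which it was higher. COL11A2 and LAMB3, which reached 1 FPKM only in the perturbed library, and THBS1, only in the control, lay within 2-fold. Among genes at that level in both libraries, 10 of 29 members were higher, against 5.45% of 10216 genes, and 2 were lower, against 6.85%. The median log2 ratio was 0.43 over the 36 members and -0.06 over all genes.

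Transcript length moved with these calls. Over all genes with a known length, 6.82% of transcripts under 6000 bases and 16.7% of longer ones were higher in the perturbed library, and 8.03% and 2.05% were lower. The median log2 ratio of all genes was -0.11 in the shorter class and 0.44 in the longer. Matrix transcripts are long, with a median of 4842 bases over the 36 members against 2567 over all genes. Within the shorter class 6 of 23 members were higher (26.1%) and 2 were lower (8.70%). Within the longer class 7 of 13 were higher (53.8%) and 1 was lower (7.69%). The surplus of higher members was thus present in both classes of length, with GC content not taken into account. Of all genes with 65% or more G or C, 16.1% were higher, and 5 of the 6 members in that range were higher. After cubic trends on length, GC content and level were subtracted, 10 of the 36 members were higher, against 6.62% of all genes, 4 were lower, against 6.33%, and the members' median was 0.16. AGRN, HSPG2, LAMA1 and LAMA5, all in the longer class, were no longer higher by the rule, and FBLN1 was added. The part of RNA quality or library preparation in the length and GC trends was not tested.

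**Figure D1:**
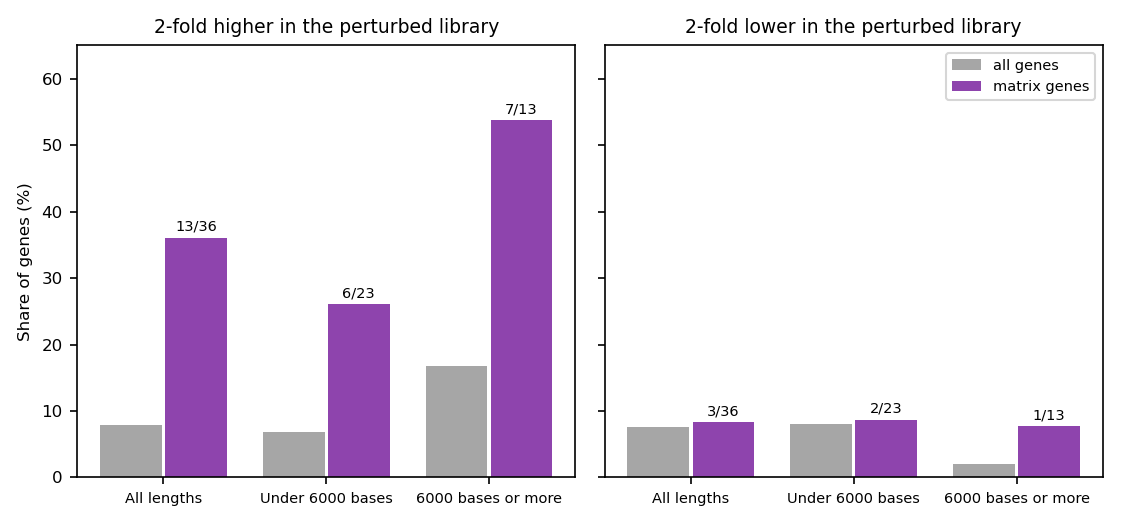
Share of genes (%) called 2-fold higher (left) or lower (right) in the perturbed library, for all genes (grey) and matrix genes (purple, with the number called over the number at 1 FPKM or more), over all lengths and in 2 classes of transcript length. Members were higher in 6 of 23 shorter and 7 of 13 longer transcripts, each share above that of all genes in its class.

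**Figure D2:**
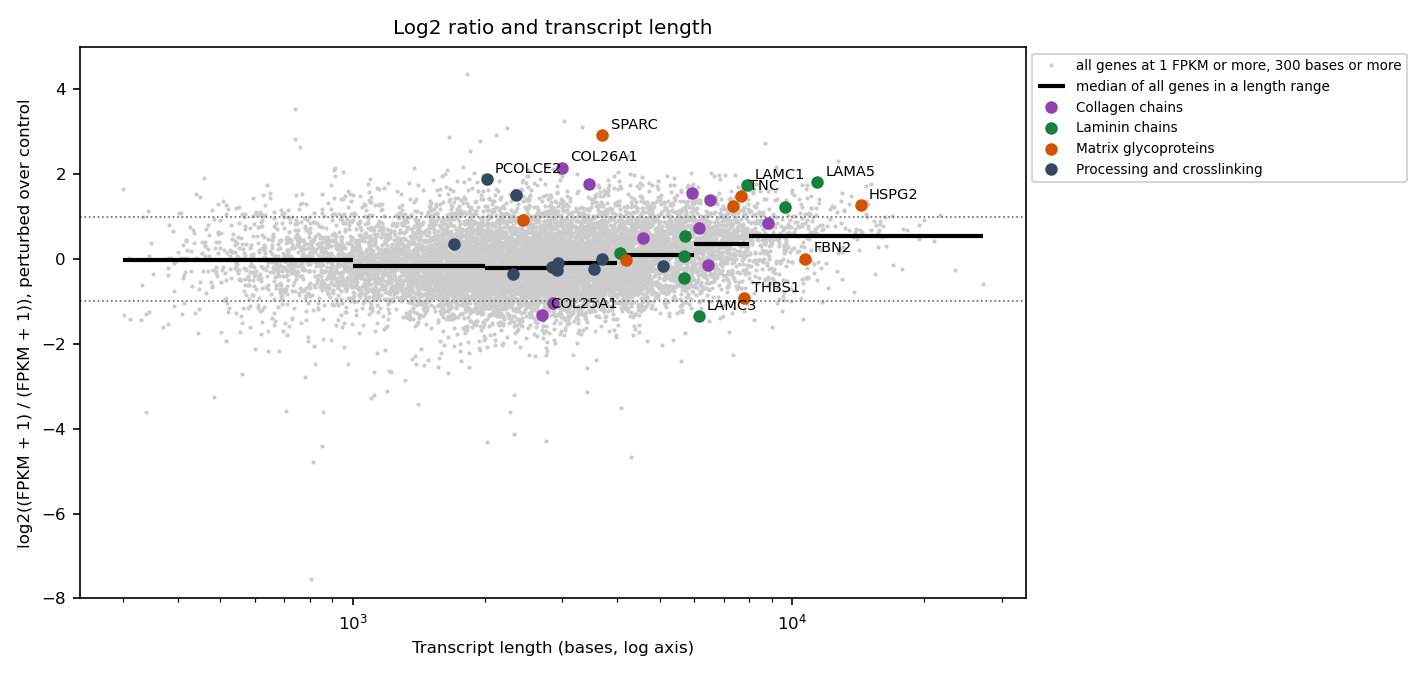
Log2 ratio (perturbed over control, with 1 FPKM added) against transcript length in bases on a log axis. Grey points are all genes at 1 FPKM or more with transcripts of at least 300 bases, black bars are medians of all genes in ranges of length (the shortest range also counts transcripts under 300 bases), coloured points are matrix genes by role, and dotted lines mark 2-fold. The bars climb to 0.55 for transcripts of 8000 bases or more, and SPARC and COL26A1 lie far above the bars at their lengths.

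Among the collagens, COL26A1, COL6A2, COL18A1 and COL4A2 were higher, COL9A2 and COL25A1 were lower, and the fibrillar chains typical of fibroblasts were nearly absent. Of the 44 collagen genes, 10 were at 1 FPKM or more, of which 4 were higher, 2 lower and 4 within 2-fold. The shares of 40% higher and 20% lower stand beside 7.85% and 7.61% of all genes. COL26A1, a collagen first described in reproductive organs, had the largest log2 ratio of them. It was at 20.5 FPKM in the perturbed culture and 3.83 FPKM in the control culture, 5.36-fold higher (95% interval for counting error alone 4.30 to 6.73, on about 508 and 97.0 fragments). By log2 ratio it ranked 54 of 11785 genes. COL18A1, a basement membrane collagen whose C-terminal fragment is endostatin, was at 8.33 and 2.16 FPKM, 3.87-fold higher (3.13 to 4.81). Both stayed past 2-fold with the trends removed, at log2 ratios of 2.1 and 1.04.

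COL4A1 and COL4A2 encode the chains of the common collagen IV trimer, and their levels moved apart. COL4A2 was at 8.06 FPKM in the perturbed culture and 2.42 FPKM in the control culture, 3.33-fold higher (2.74 to 4.06). COL4A1 was at 3.56 and 2.23 FPKM, a ratio of 1.60 (1.21 to 2.11) that did not pass 2-fold. Within the control library COL4A2 stood at 1.09 times the level of COL4A1 (0.827 to 1.44), and within the perturbed library at 2.27 times (1.87 to 2.76). These ratios do not depend on scaling between libraries, and their counting intervals did not overlap. They can still carry the trends on length and GC content. Removing the trends took the log2 ratio of COL4A2 from 1.40 to 1.06, near the edge of the call, and that of COL4A1 from 0.50 to 0.33. The COL4A1 transcripts matched here range from 2549 to 6616 bases, so its fragment numbers are less certain. Of the other collagen IV chains, COL4A5 was at 1.61 and 1.89 FPKM, COL4A3 at 0 and 0.0559 FPKM, and COL4A4 and COL4A6 were listed at 0 in both libraries.

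The promoter windows of COL4A1 and COL4A2 are shown because the genes lie head to head and their windows overlap. Each window runs from 250 bases before the RefSeq start to 50 bases after it. The start sites lie 127 bases apart and the windows share 226 bases. Capitals mark GC boxes (GGGCGG) and CCAAT boxes (CCAAT) on either strand, and the CCAAT match lies in the shared stretch of both.
COL4A1 (GRCh38.p14, chr13:110307108-110307407, minus strand): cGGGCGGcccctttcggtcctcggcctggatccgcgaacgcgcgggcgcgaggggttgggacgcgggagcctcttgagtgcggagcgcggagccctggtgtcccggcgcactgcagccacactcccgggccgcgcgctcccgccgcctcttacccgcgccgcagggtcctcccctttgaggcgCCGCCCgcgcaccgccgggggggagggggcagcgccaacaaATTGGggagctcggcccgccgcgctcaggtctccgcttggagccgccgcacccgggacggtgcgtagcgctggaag
COL4A2 (GRCh38.p14, chr13:110307034-110307333, plus strand): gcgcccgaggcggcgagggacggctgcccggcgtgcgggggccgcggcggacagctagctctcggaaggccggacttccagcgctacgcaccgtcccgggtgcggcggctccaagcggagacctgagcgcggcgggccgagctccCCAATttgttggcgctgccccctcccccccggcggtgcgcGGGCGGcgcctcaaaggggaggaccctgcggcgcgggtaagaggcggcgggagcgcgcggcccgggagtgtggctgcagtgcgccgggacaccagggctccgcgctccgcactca
The CCAAT box was present in 35.7% of 27305 promoter windows and the GC box in 44.6%, so neither is rare. A letter match is a description of the window only.

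COL6A2, a chain of the beaded-filament collagen VI, was at 6.31 FPKM in the perturbed culture and 1.13 FPKM in the control culture, 5.58-fold higher (3.84 to 8.33). Its trimer partners did not reach 1 FPKM. COL6A1 was at 0.280 FPKM and 0, on about 10 fragments and none, and COL6A3 at 0.0132 FPKM and 0. Within the perturbed library COL6A2 stood 22.5 times above COL6A1 (12.0 to 47.7). COL6A2 was thus higher while its partner chains stayed under 1 FPKM.

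Both lower collagens were non-fibrillar. COL9A2, a chain of cartilage collagen IX, was the most abundant collagen of the control library at 25.7 FPKM and stood at 12.0 FPKM in the perturbed one, 2.15-fold lower (1.86 to 2.48). This call sits at the edge, with a log2 ratio of -1.04 that became -0.91, -0.94 or -0.98 when the libraries were scaled or centred. Its trimer partners were sparse, with COL9A1 at 0 and 0.426 FPKM and COL9A3 at 0.0988 and 0.0484 FPKM. COL25A1, a transmembrane collagen of neurons, stood at 0.0460 and 1.59 FPKM, on about 1.02 and 36.0 fragments. That is 34.7-fold lower, with a counting interval of 5.90 to 1337. A value on about 1 fragment fixes the direction between these libraries but not the size.

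The remaining expressed collagens were within 2-fold after the pseudocount. COL12A1, which binds along collagen fibrils, was at 2.92 and 1.19 FPKM, and COL11A2, a fibril-forming chain, at 1.04 and 0.224 FPKM, both larger in the perturbed library. Their plain ratios were 2.45 (1.91 to 3.16) and 4.62 (2.45 to 9.45). Both log2 ratios were smaller with the trends removed, at 0.32 and 0.14. Of the main interstitial chains, COL1A1 was at 0.0985 and 0.154 FPKM, and COL1A2 and COL3A1 were listed at 0 in both libraries. COL5A1 was at 0.562 and 0.214 FPKM, COL5A2 at 0.134 and 0.0328 FPKM, and COL5A3 at 0 in both. These levels are those of a culture with hardly any collagen I or III message.

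**Figure D3:**
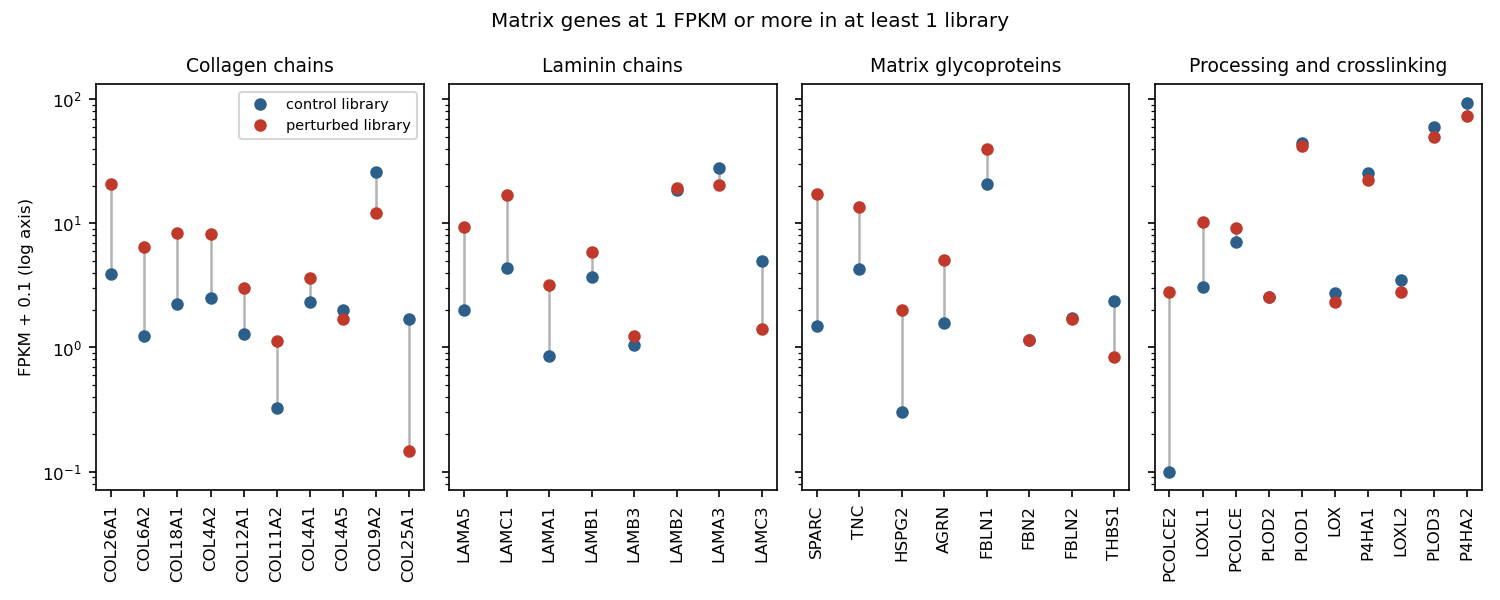
Level of each of the 36 matrix genes that reached 1 FPKM in either library, by role, as FPKM plus 0.1 on a log axis (blue, control library; red, perturbed library; 1 library per group). COL26A1, LAMA5, LAMC1, SPARC and TNC lie well apart in favour of the perturbed library, most processing genes coincide, and the lowest blue point is PCOLCE2, listed at 0 in the control.

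The make-up of laminin chains differed between the libraries. Of the 12 laminin genes, 8 were at 1 FPKM or more, with 3 higher, 1 lower and 4 within 2-fold. The shares of 37.5% higher and 12.5% lower stand beside 7.85% and 7.61% of all genes. LAMA5, the alpha chain of the laminins of most mature epithelial basement membranes, was at 9.17 FPKM in the perturbed culture and 1.89 FPKM in the control culture, 4.86-fold higher (4.15 to 5.71). LAMC1, the gamma chain shared by most laminins, was at 16.7 and 4.31 FPKM, 3.89-fold higher (3.42 to 4.43). LAMA1, the alpha chain of the early embryonic basement membrane, was at 3.08 and 0.747 FPKM, 4.12-fold higher (3.12 to 5.51). LAMC3, an alternative gamma chain, was at 1.32 and 4.89 FPKM, 3.70-fold lower (2.83 to 4.90). LAMC3 went against the length trend: its transcript has 6133 bases, and only 2.05% of all genes in that class were lower.

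The balance of the gamma chains differed between the libraries. In the control library LAMC1 stood at 0.882 times the level of LAMC3 (0.745 to 1.04, an interval that includes 1), and in the perturbed library at 12.7 times (9.95 to 16.4). Both are long single-transcript genes, and the ratio within a library needs no scaling between libraries. With the trends removed, LAMC1 had a log2 ratio of 1.46 and LAMC3 of -1.80.

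The alpha chains kept their order at the top. LAMA3, the alpha chain of the anchoring laminin, was the highest in both libraries, at 20.2 and 27.7 FPKM. LAMA5 stood at 0.0682 times LAMA3 in the control (0.0583 to 0.0794) and at 0.454 times in the perturbed library (0.415 to 0.498). The LAMA3 transcripts matched here run from 1815 to 10661 bases, so this comparison is approximate. LAMA5 has 11426 bases and 66.4% G or C, and LAMA3 medians of 5671 bases and 50.7%, so the trends also enter it. Removing the trends took the log2 ratio of LAMA5 from 1.82 to 0.98 and that of LAMA3 from -0.44 to -0.47. LAMA2 was at 0.464 and 0.571 FPKM and LAMA4 at 0.215 and 0.0770 FPKM. LAMB3, a beta chain that pairs with LAMA3, was far below it, at 1.15 and 0.950 FPKM.

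No beta chain passed 2-fold. LAMB2 was at 19.3 and 18.4 FPKM, a ratio of 1.05 (0.957 to 1.15), and LAMB1 at 5.76 and 3.62 FPKM, a ratio of 1.59 (1.32 to 1.93). LAMB4 was at 0 and 0.0195 FPKM. With the trends removed, LAMC1 was the one laminin still past 2-fold in the higher direction, while LAMA5 was just below it at 0.98 and LAMA1 at 0.63.

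**Figure D4:**
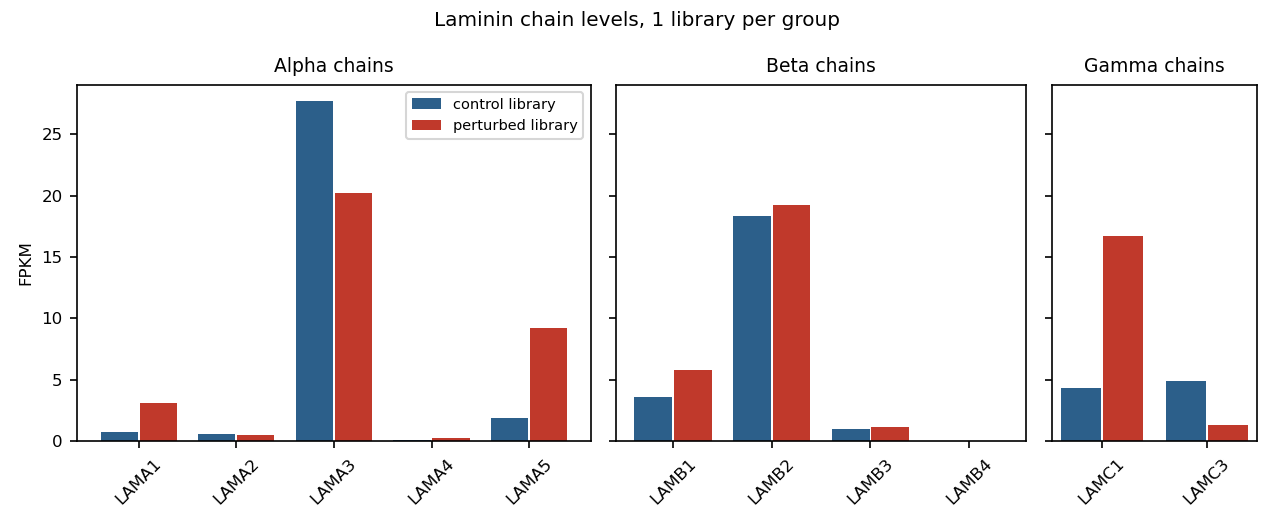
FPKM of laminin chains in the control (blue) and perturbed (red) library, 1 library per group, with no error bars because there are no replicates. LAMA5 and LAMC1 are taller in the perturbed library, LAMC3 in the control, and LAMB2 is nearly level.

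The promoter windows of LAMA5 and LAMC1 are shown because these partner chains were both higher. Capitals mark the GC box GGGCGG on either strand, which occurs 5 times in the LAMA5 window and 3 times in that of LAMC1.
LAMA5 (GRCh38.p14, chr20:62367263-62367562, minus strand): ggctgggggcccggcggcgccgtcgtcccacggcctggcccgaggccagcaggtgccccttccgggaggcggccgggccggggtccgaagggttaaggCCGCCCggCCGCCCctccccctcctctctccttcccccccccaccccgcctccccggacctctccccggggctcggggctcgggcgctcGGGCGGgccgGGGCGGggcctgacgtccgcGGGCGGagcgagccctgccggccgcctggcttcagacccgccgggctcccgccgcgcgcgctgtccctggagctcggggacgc
LAMC1 (GRCh38.p14, chr1:183023170-183023469, plus strand): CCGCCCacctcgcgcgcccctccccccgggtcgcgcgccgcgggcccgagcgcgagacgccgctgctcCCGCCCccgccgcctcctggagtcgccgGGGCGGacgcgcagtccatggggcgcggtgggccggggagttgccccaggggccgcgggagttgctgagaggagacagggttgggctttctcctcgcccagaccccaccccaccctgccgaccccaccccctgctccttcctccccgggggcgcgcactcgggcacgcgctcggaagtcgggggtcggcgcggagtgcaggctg
The windows are 82.7% and 79.0% G or C. Among the 11 higher members with a RefSeq window, 8 had a GC box, as did 16 of the 21 other members at 1 FPKM or more with a window. Neither window held the AP-1 motif (TGANTCA) or the TEAD motif (GGAATG).

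Among the glycoproteins, 4 of 8 expressed members were higher and none was lower, beside 7.85% and 7.61% of all genes. Their median transcript length was 7500 bases, and of all genes of 6000 bases or more 16.7% were higher. With the trends removed, 3 were higher and 1 was lower, and the group's median log2 ratio fell from 1.09 to 0.37. SPARC, a collagen-binding matricellular protein linked to mesenchymal cells, had the largest log2 ratio of the whole set. It was at 17.3 FPKM in the perturbed culture and 1.40 FPKM in the control culture, on about 536 and 44.4 fragments, 12.3-fold higher (9.07 to 17.2). It ranked 32 of 11785 genes by log2 ratio, and removing the trends left its log2 ratio at 2.92 (2.93 before). TNC, the matricellular tenascin C, was at 13.5 and 4.17 FPKM, 3.24-fold higher (2.83 to 3.72), with 1.21 on the log2 scale after the trends were removed. SPARC and TNC were thus past 2-fold with and without the trends.

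The basement membrane proteoglycans were both higher before the trends were removed. HSPG2, which encodes perlecan, was at 1.92 FPKM in the perturbed culture and 0.203 FPKM in the control culture, 9.43-fold higher (6.28 to 14.7, about 239 and 26.0 fragments). AGRN, which encodes agrin, was at 4.96 and 1.49 FPKM, 3.33-fold higher (2.64 to 4.23). Both transcripts are long and GC-rich, at 14327 bases with 64.5% G or C and 7359 bases with 67.6%. With the trends removed their log2 ratios were 0.19 and 0.55, within 2-fold. HSPG2 had the longest transcript of the expressed members. The nidogens that link these networks were nearly silent, with NID1 at 0.0199 and 0.0389 FPKM and NID2 at 0 and 0.114 FPKM.

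Among the fibulins and fibrillins of the set, FN1 and VTN, none passed 2-fold. FBLN1, a fibulin, was the most abundant glycoprotein in both libraries, at 39.6 and 20.5 FPKM, a ratio of 1.93 (1.71 to 2.18). It missed 2-fold with a log2 ratio of 0.91, and passed it when the libraries were scaled to a common sum (1.05), centred (1.01) or the trends were removed (1.13). FBLN2 was at 1.59 and 1.64 FPKM and FBN2, a fibrillin, at 1.05 and 1.04 FPKM. FBN1, the main fibrillin of adult tissue, was at 0.108 FPKM and 0, on about 11.0 fragments and none. FN1, which encodes fibronectin, stayed low at 0.699 and 0.503 FPKM, and the cell-adhesive serum protein VTN was at 0.612 and 0.599 FPKM.

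THBS1, the matricellular thrombospondin that can activate latent TGF-beta, had the larger value in the control. It was at 0.737 FPKM in the perturbed culture and 2.29 FPKM in the control culture, a control-over-perturbed ratio of 3.11 (2.24 to 4.37). With the pseudocount its log2 ratio was -0.92, which missed the threshold, and it passed with a pseudocount of 0.1 FPKM (-1.51) and with the trends removed (-1.41). THBS1 is a long transcript of 7775 bases, a class in which few genes were lower.

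**Figure D5:**
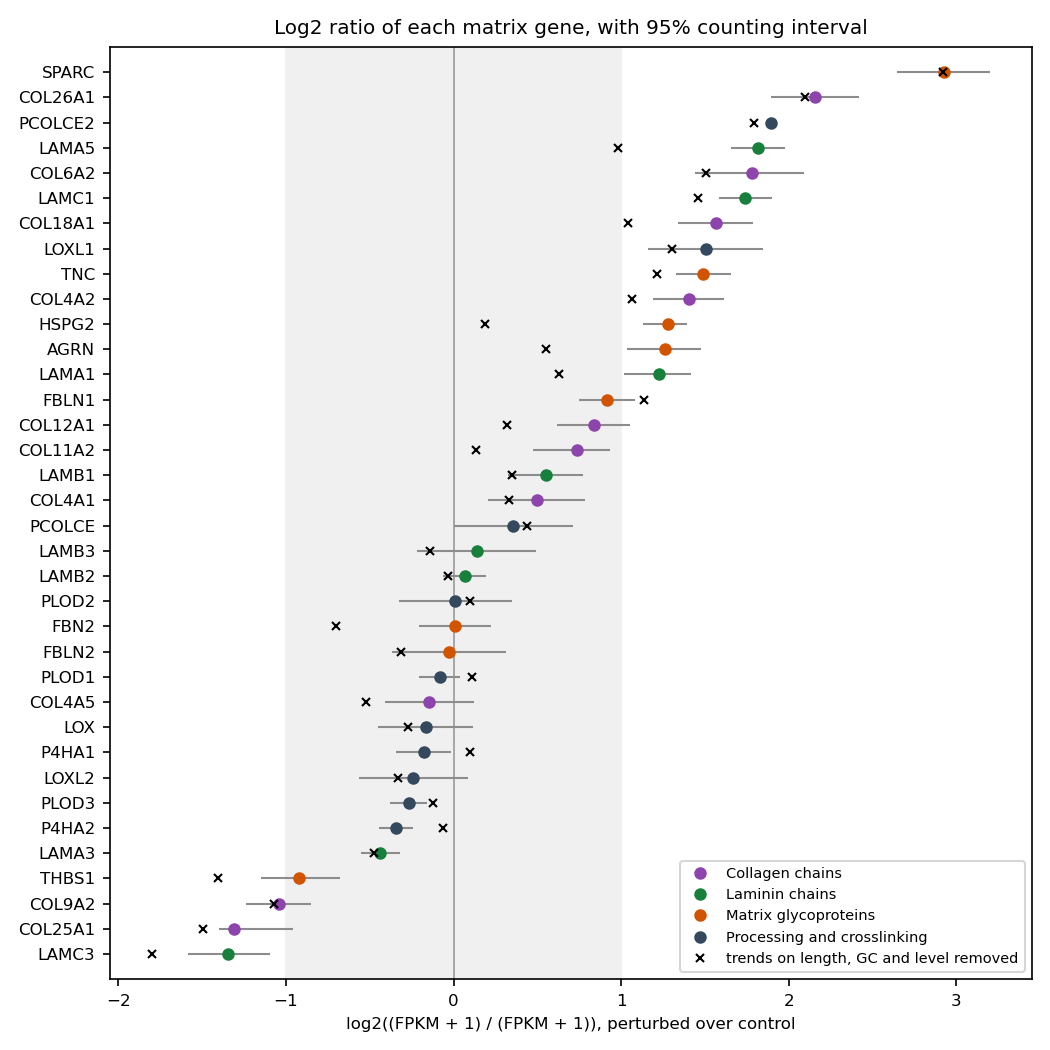
Log2 ratio of each of the 36 matrix genes at 1 FPKM or more, perturbed over control with 1 FPKM added (coloured points by role), with its 95% counting interval (grey lines, counting error only, none for PCOLCE2) and the ratio after trends on length, GC and level were removed (crosses). The grey band is within 2-fold; SPARC and COL26A1 barely move with the trends removed, while the crosses of HSPG2, AGRN, LAMA1 and LAMA5 fall inside the band.

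The SPARC promoter window is shown because SPARC had the largest log2 ratio. Capitals mark the GGA repeat GGAGGAGG and the TEAD motif GGAATG on either strand.
SPARC (GRCh38.p14, chr5:151686866-151687165, minus strand): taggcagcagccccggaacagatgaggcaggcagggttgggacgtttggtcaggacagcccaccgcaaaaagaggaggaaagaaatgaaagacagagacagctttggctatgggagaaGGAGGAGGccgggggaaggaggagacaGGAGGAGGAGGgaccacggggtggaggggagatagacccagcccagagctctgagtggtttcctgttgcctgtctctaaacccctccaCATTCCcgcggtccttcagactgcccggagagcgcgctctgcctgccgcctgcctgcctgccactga
The GGA repeat was found at 3 places, of which a pair overlaps, and the TEAD motif at 1. The share of all windows with these motifs was 10.4% and 14.0%. Of the 11 higher members with a window, 4 held the GGA repeat (COL18A1, COL6A2, SPARC and LOXL1) and SPARC alone the TEAD motif. Of the 21 other members at 1 FPKM or more with a window, 3 held the GGA repeat and 3 the TEAD motif (COL12A1, THBS1 and P4HA2). The AP-1 motif, found in 7.76% of all windows, was in none of the 11 higher members and in 1 of the 21 others (LAMA3).

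Most enzymes that modify and crosslink collagen were level between the libraries. All 10 reached 1 FPKM in one library or both, with 2 higher (20%, beside 7.85% of all genes), none lower and 8 within 2-fold. P4HA2, a catalytic subunit of prolyl 4-hydroxylase, was the most abundant, at 73.4 and 93.4 FPKM, and its paralog P4HA1 was at 22.2 and 25.3 FPKM. The lysyl hydroxylases PLOD1 (41.8 and 44.3 FPKM), PLOD2 (2.45 and 2.43 FPKM) and PLOD3 (49.8 and 60.2 FPKM) differed little. All 5 hydroxylase genes were thus expressed in cells whose collagen I and III chains were near 0. The summed level of the 10 genes was 217 FPKM in the perturbed culture and 242 FPKM in the control culture.

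The 2 higher members act after secretion. LOXL1, a lysyl oxidase paralog tied to elastic fibres, was at 10.2 FPKM in the perturbed culture and 2.97 FPKM in the control culture, 3.45-fold higher (2.56 to 4.72). The other lysyl oxidases of the set did not follow it, with LOX at 2.25 and 2.64 FPKM and LOXL2 at 2.72 and 3.40 FPKM. PCOLCE2, an enhancer of procollagen C-proteinase, was at 2.72 FPKM in the perturbed library, on about 43.8 fragments, and listed at 0 in the control. Its paralog PCOLCE was present in both, at 9.15 and 6.93 FPKM. A listed 0 can also be a failed estimate, so no fold is given for it.

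The other 43 members were under 1 FPKM in both libraries, with 0.946 FPKM as their highest value. Of these, 17 were listed at 0 in both libraries, all of them collagens, 4 at 0 in the control alone, 5 at 0 in the perturbed library alone, and 17 were above 0 in both. The value was larger in the perturbed library for 15 and in the control for 11. The 4 listed at 0 in the control alone were COL10A1, COL6A1, COL6A3 and FBN1, and the 5 listed at 0 in the perturbed library alone were COL2A1, COL4A3, COL9A1, LAMB4 and NID2. Many of these values rest on a few fragments, which limits what a difference between them can show.

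The 3 lists of other genes of the pathway show how far the pattern went. The collagen synthesis and secretion list (23 genes, 15 at 1 FPKM or more) had 1 higher and 2 lower, with a median log2 ratio of 0.08. The higher gene was PXDN, the peroxidase that crosslinks collagen IV, at 17.1 and 3.55 FPKM. The lower ones were the transglutaminase TGM2 (65.8 and 269 FPKM) and P4HA3 (0.702 and 2.48 FPKM), a further prolyl hydroxylase subunit. Its most abundant members, the cyclophilin PPIB (984 and 967 FPKM) and the disulphide isomerase P4HB (515 and 386 FPKM), were within 2-fold. Its shares, 6.67% higher and 13.3% lower, rest on 15 genes and stand beside the 7.85% and 7.61% of all genes.

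The list of other matrix glycoproteins and proteoglycans (30 genes) had 6 at 1 FPKM or more, with 3 higher, 1 lower and a median of 0.72. Its shares, 50% higher and 16.7% lower, rest on 6 genes and stand beside 7.85% and 7.61% of all genes. The microfibril protein MFAP5 (8.49 and 1.79 FPKM), the basement membrane protein NTN4 (1.55 and 0.226 FPKM) and the fibulin FBLN5 (21.7 and 9.99 FPKM) were higher. The fibulin family member EFEMP1 was lower, at 3.32 and 13.8 FPKM. NTN4 rested on about 7.0 control fragments and was at a log2 ratio of 0.82 with the trends removed, within 2-fold. The stromal proteoglycans DCN and LUM were at 0 in both libraries.

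Matrix receptors (17 genes, 13 at 1 FPKM or more) had 4 higher, none lower and a median of 0.53. The higher share of 30.8% stands beside 7.85% of all genes, and 7.61% of all genes were lower. CD44, at 0.383 and 1.61 FPKM, was within 2-fold only after the pseudocount, at a log2 ratio of -0.92. The plain ratio of CD44 was 4.20-fold lower (1.73 to 12.1). It passed 2-fold lower with the trends removed (-1.02). The integrin subunit ITGB5 was at 29.2 and 6.66 FPKM, the collagen receptor DDR1 at 40.4 and 18.2 FPKM, the syndecan SDC2 at 36.2 and 15.8 FPKM, and BCAM, a receptor of LAMA5 laminins, at 5.97 and 2.40 FPKM. The common beta subunit ITGB1 was at 59.4 and 51.9 FPKM. BCAM and LAMA5 were both higher, although neither passed 2-fold with the trends removed, at log2 ratios of 0.84 and 0.98.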

How the data were processed

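RNA was measured in 2 OVSAHO cultures, 1 per group, grouped by the genotype label. Per the labels' protocols, cDNA was made with SMART-Seq HT and libraries with Nextera XT; this chemistry keeps no strand, so overlapping antisense genes cannot be told apart. The authors deposited FPKM per gene symbol, per the file headers. Per the submitters' processing notes, the tools were Cuffdiff 2.2.1, SAMtools 0.1.18, Bowtie2 2.2.8 and TopHat2 2.1.1, with the build hg19. The annotation, filters, treatment of multi-mapping reads and scaling of one library to the other are not stated there.

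FPKM values were used as deposited. Log2 ratios carry a pseudocount of 1 FPKM, which understates the change of weakly expressed genes, and folds are plain FPKM ratios. Differences between libraries include technical spread that cannot be separated without replicates. Transcript lengths and GC content are medians over GENCODE 29 transcripts (GRCh38) matched to RefSeq, found for 93.1% of genes at 1 FPKM or more and for all but 1 member (COL1A1). Of the 36 expressed members, 16 had several matched transcripts. Depth was the value that placed most single-transcript FPKM values in a window 2% wide at 1 fragment, after a shortening of 200 bases. Of the values equal to a few fragments (0.5 to 5.5), 60.3% (perturbed) and 59.3% (control) lay within 2% of a whole number. Intervals are 95% Clopper-Pearson intervals on these approximate fragments and cover counting error only; amplified copies are not independent molecules. The functions were tested on simulated data. Promoter windows are RefSeq's on GRCh38.p14, with a window for 32 of the 36 expressed members, and no coordinates of the deposited tables were used. Python 3.11.15, numpy 2.4.6, pandas 2.3.3 and scipy 1.17.1 were used.

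Members past 2-fold were named with folds and intervals, other members at 1 FPKM or more with their levels, and the rest by counts, with partners, paralogs and genes listed at 0 in 1 library named. From each of the 3 pathway lists up to 4 genes per direction were named. A member counted among the laminins is not reported by name here. Members, lists and rules were chosen with earlier results of these data known. Alternatives were pseudocounts of 0.1 and 5 FPKM, scaling to a sum of 1000000, centring, a trimmed mean of ratios, other filters, other folds, and removal of trends.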

Additional observations from a re-analysis of the deposited data

How the results depend on the processing

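No paired analysis was possible because each group was 1 library. The counts of 13 higher and 3 lower members stayed within 1.5 times under the other settings, except as follows. With a pseudocount of 5 FPKM, 5 members were higher and 0 lower, against 1.86% and 3.22% of all genes, and the median log2 ratio was 0.23. At 4-fold with 1 FPKM added to both values, 2 were higher (SPARC and COL26A1) and 0 lower, against 0.602% and 0.713% of all genes. Plain folds exceeded 4 for further members, among them HSPG2 (9.43-fold higher) and COL25A1 (34.7-fold lower). With 5 FPKM or more in a library, 9 of 19 members were higher and 1 lower, against 6.96% and 8.85% of all genes, and the median was 0.91. The median was 0.55 after scaling to a common sum, which moved the median of all genes from -0.06 to 0.06, and 0 without a filter, where low members pull it to 0. With trends on length, GC and level removed the median was 0.16, AGRN, HSPG2, LAMA1 and LAMA5 lost the call, and FBLN1 and THBS1 gained one. All 13 higher calls remained when the libraries were scaled, centred or set by a trimmed mean, and COL9A2 lost its call in each. None of the 16 called members changed direction, but most settings could not have reversed one. A pseudocount, filter or fold cut-off leaves the direction as it is. Scaling, centring and the trimmed mean moved these log2 ratios by far less than 1, so only the removal of trends could have reversed a call. Counts of fewer than about 10 fragments limit what can be read from members under 1 FPKM, and without replicates no setting says how a second culture would look.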

Other observations

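COL23A1, a transmembrane collagen, stood just under the level at which genes were called and was singled out after its values were seen. It was at 0.946 FPKM in the perturbed culture and 0.0386 FPKM in the control culture, on about 24.0 fragments and 1 fragment, a ratio of 24.5 with a counting interval of 4.0 to 1012. COL25A1, another transmembrane collagen, had the opposite direction on similarly few fragments, 1.02 against 36.0. COL7A1, the anchoring fibril collagen of epithelia, was at 0.239 and 0.0492 FPKM, on about 19.2 and 4.04 fragments, a ratio of 4.85 (1.62 to 19.4). The COL23A1 transcript has 66.0% G or C, and 16.1% of genes with 65% or more were higher. The COL7A1 transcript has 9276 bases, and 21.1% of genes with 8000 bases or more were higher. Both shares are over genes at 1 FPKM or more, and the trends were not removed for genes below that level.

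LAMA5-AS1, an antisense neighbour of LAMA5, was at 7.13 FPKM in the perturbed culture and 13.5 FPKM in the control culture, a control-over-perturbed ratio of 1.90 (1.14 to 3.22) that did not pass 2-fold, while LAMA5 was higher in the perturbed library. The libraries carry no strand, so fragments of an overlap cannot be assigned to one of them. The antisense genes of COL18A1 and COL4A2 were at or near 0: COL18A1-AS1 at 0 and 0.0516 FPKM, and COL18A1-AS2 and COL4A2-AS1 at 0 in both.

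Summed over members, collagen levels were 67.7 FPKM in the perturbed culture and 44.2 FPKM in the control culture, laminin levels 77.6 and 63.9 FPKM, and glycoprotein levels 82.1 and 34.0 FPKM. The glycoprotein sum differed most, and FBLN1, SPARC and TNC carried most of that difference.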
